A study of Mus musculus with 21 samples.

Results

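The matrix metalloproteinases, the ADAMTS proteases and their TIMP inhibitors were examined in oocytes and granulosa cells of mice. Members were all genes whose symbol is Mmp, Adamts or Timp followed by a number, whatever their level. This gave 46 of 55335 gene identifiers, with 23 Mmp, 19 Adamts and 4 Timp genes, and all 46 were listed in each of the 21 libraries. RNA was sequenced from 12 oocyte and 9 granulosa cell libraries of female ICR mice. Young mice were 6 to 8 weeks old and gave 3 oocyte libraries and 1 granulosa library. All other mice were 18 months old. Those without a transplant (Aged) gave 2 libraries of each cell type. The remaining aged mice had received human umbilical cord mesenchymal stem cells under the ovarian capsule and were sampled 3 weeks later. The cells were unsorted (Aged + Unsorted, 2 oocyte libraries and 1 granulosa library), sorted for high LRP1 (Aged + LRP1high, 3 of each) or sorted for low LRP1 (Aged + LRP1low, 2 of each). Granulosa cells were freed from cumulus-oocyte complexes with hyaluronidase, and oocytes were freed of their zona with pronase. The number of cells or mice pooled in a library is not given in the sources used here.

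Matrix metalloproteinases are zinc-dependent enzymes that are made as inactive precursors and cut collagens, elastin and other proteins outside the cell. Most are secreted, whereas the membrane-type enzymes stay on the cell surface and can activate secreted ones. ADAMTS proteases cut proteoglycans, trim procollagens or act on other matrix proteins. TIMPs block matrix metalloproteinases by binding the active site, and TIMP3 also inhibits ADAMTS proteases. In the ovary these proteases and inhibitors take part in follicle growth, ovulation and luteal remodelling. ADAMTS1 made by granulosa cells cleaves versican in the cumulus matrix. LRP1, the receptor used to sort the transplanted cells, is an endocytic receptor that takes up several of these proteases and their inhibitor complexes.

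Several libraries went against their labels. The summed FPKM (fragments per kilobase of gene, scaled to library size) of 10 oocyte genes such as Zp3 and Gdf9 was 1340 to 14621 in 8 oocyte libraries. It was only 11.4 to 166 in the other 4, which were Young 1, Aged 1 and both Aged + LRP1low libraries. In the same 4, the median of 327 vomeronasal receptors, genes of a sensory organ in the nose that should be silent in the ovary, was 0.336 to 2.73 FPKM, against at most 0.0763 in the other 8. Markers of other cell types summed in the 4 libraries to 4.02 to 38.8 FPKM for stromal, 5.53 to 44.6 for immune and 3.83 to 26.1 for endothelial genes, against 0.111 to 7.06, 0 to 7.13 and 0.192 to 11.0 in the 8. Granulosa markers summed to 33.5 to 59.6 in the 4 and 0.307 to 94.9 in the 8, and luteal markers to 4.26 to 35 and 0 to 30.2. Among granulosa libraries, Aged + Unsorted 1 had an oocyte marker sum of 11740 and a granulosa marker sum of 23.3. The granulosa marker sum was 2326 in Young 1, 817 in Aged + LRP1high 3, 190 in Aged + LRP1low 1 and 55 in Aged + LRP1high 1, and 1.14 to 6.61 in the remaining 4. Depth was 0.278 to 3.40 aligned gigabases. A single gene, Gm10800, was listed at 2.71 to 749997 FPKM in oocyte libraries and at 40956 to 944446 in granulosa libraries. FPKM is relative to the whole library, so levels of other genes are hard to compare between libraries that differ in Gm10800. Its part in the marker and member values was not tested.

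The levels of the 46 members followed this division. Their median was 1.18, 4.55, 5.32 and 3.82 FPKM in Young 1, Aged 1, Aged + LRP1low 1 and Aged + LRP1low 2, and 0 to 0.156 in the 8 oocyte libraries rich in oocyte markers. Young 2, which is one of the 8, listed a single member above 0, Adamts4 at 0.205 FPKM. In all, 28 members had their highest oocyte value in a LRP1low library and 14 in Aged 1. What part the low-level signal across the genome played in the member values of these 4 libraries was not tested.

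**Figure D1:**
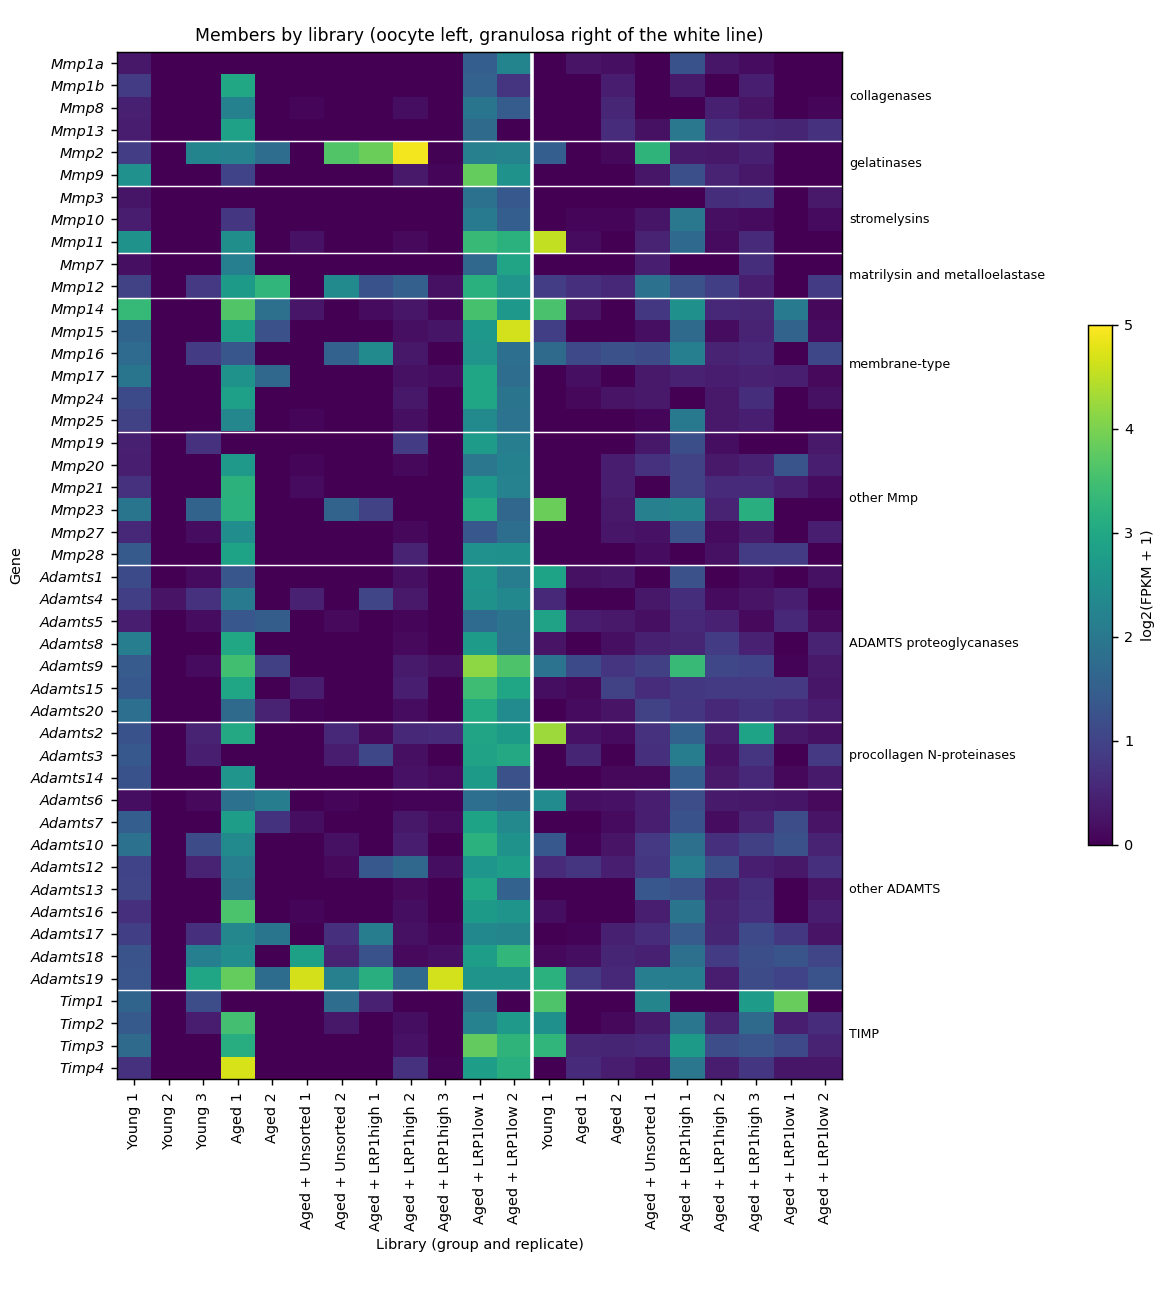
Level of each of the 46 members (rows, ordered by class) in the 21 libraries (columns), as log2(FPKM + 1), with oocytes left and granulosa cells right of the white line. Oocyte Young 1, Aged 1 and both Aged + LRP1low libraries show nearly every member, the other 8 oocyte libraries show few, and Mmp2 in oocyte Aged + LRP1high 2 has the highest value, 29.2 FPKM.

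**Figure D2:**
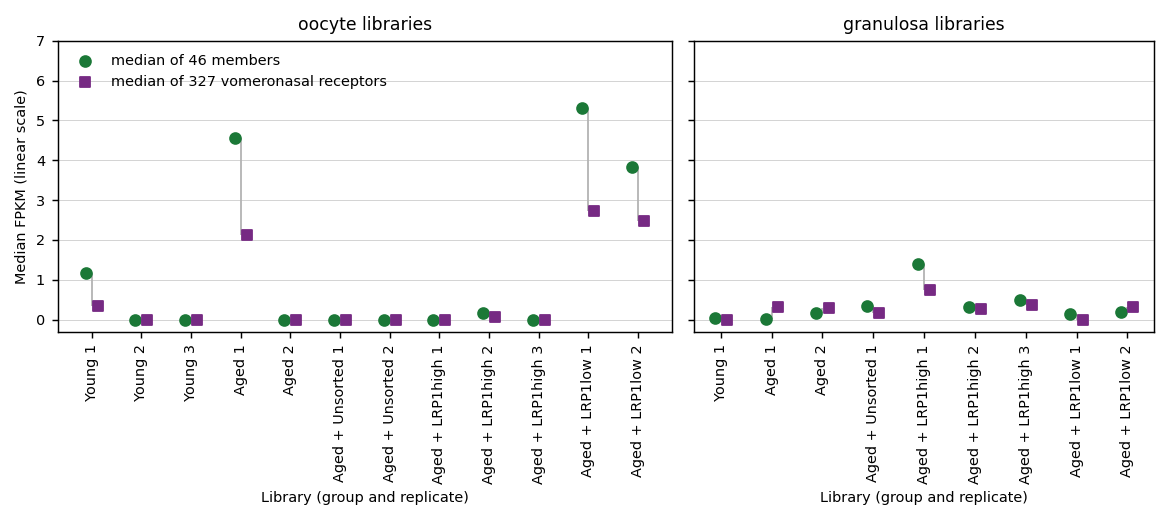
Median FPKM of the 46 members (circles) and of 327 vomeronasal receptors (squares) in each library, on a linear axis, with oocytes left and granulosa cells right. Both medians are high in oocyte Aged 1 and Aged + LRP1low 1 and 2, where the receptor median is 2.13 to 2.73 FPKM, and near 0 in most others.

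Within the 8 libraries rich in oocyte markers, 29 members stayed below 1 FPKM everywhere, and 35 were listed at 0 in at least 4 of the 8. The 95th percentile of the vomeronasal receptors in the same library was used as a level to compare with, and 25 members never exceeded it. Adamts19 and Mmp12 exceeded it in 6 of the 8 libraries and Adamts18 in 5. Mmp2, Adamts2 and Adamts4 did so in 4. Adamts19 and Mmp2 were the members with a mean of at least 5 FPKM over all oocyte libraries. No member reached that mean in granulosa cells.

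Adamts19 encodes an ADAMTS protease without a well-established substrate. Its FPKM was 1.5, 0 and 6.81 in Young oocytes, 13.1 and 2.40 in Aged, 24.7 and 3.51 in Aged + Unsorted, 7.82, 2.27 and 24.2 in Aged + LRP1high, and 4.97 and 5.01 in Aged + LRP1low. It was the most widely detected member in oocytes, at 1 FPKM or more in 7 of the 8 libraries rich in oocyte markers, and all groups overlapped. The depth of coverage over the gene was 20.6 reads per base in Aged + LRP1high 3 and 7.62 in Aged + Unsorted 1. The difference between Aged and Young was 1.36 on the log2(FPKM + 1) scale (SE 1.16, adjusted p = 0.590, limma), and that between Aged + LRP1high and Aged was 0.38 (SE 1.16, adjusted p = 0.908). Neither exceeded the spread between libraries.

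Mmp2 encodes gelatinase A, which cuts denatured and basement membrane collagen. Its FPKM was 0.871, 0 and 3.79 in Young oocytes, 3.63 and 2.43 in Aged, and 0 and 11.5 in Aged + Unsorted. In Aged + LRP1high it was 13.7, 29.2 and 0.0267, and in Aged + LRP1low 3.55 and 3.71. The 3 highest values came from libraries of transplanted mice with deep coverage of the gene, 22.5, 32.2 and 57.5 reads per base, but each of these groups also held a library at or near 0. Aged + LRP1high exceeded Aged by 0.95 on the log2 scale with a 95% interval from -2.16 to 4.06 (adjusted p = 0.714, limma), so the data allow a change in either direction.

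Mmp12 encodes macrophage metalloelastase, which cuts elastin. Its FPKM was 0.950, 0 and 0.777 in Young oocytes and 5.61 and 8.78 in Aged. In transplanted mice it was 0 and 4.16 in Aged + Unsorted, 1.39, 1.89 and 0.170 in Aged + LRP1high, and 8.02 and 5.06 in Aged + LRP1low. The Aged libraries thus lay above all Young, all Aged + Unsorted and all Aged + LRP1high libraries, and overlapped with Aged + LRP1low. The share of all genes that separate in this way was not counted, and the value of 5.61 came from Aged 1, which was low in oocyte markers. Aged exceeded Young by 2.41 (SE 0.80, adjusted p = 0.282, limma), the smallest adjusted p of any member in that comparison. Aged + LRP1high minus Aged was -2.00 (SE 0.80, adjusted p = 0.347, limma), and neither difference passed the test over all genes. These comparisons share the Aged libraries. Without the 4 libraries low in oocyte markers, Aged rested on 1 library at 8.78 FPKM and a coverage of 3.56 reads per base, and its spread was taken from the other groups. The difference to Young was then 2.87 (SE 1.17, adjusted p = 0.437, limma) and that of Aged + LRP1high to Aged -2.28 (SE 1.11, adjusted p = 0.579).

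**Figure D3:**
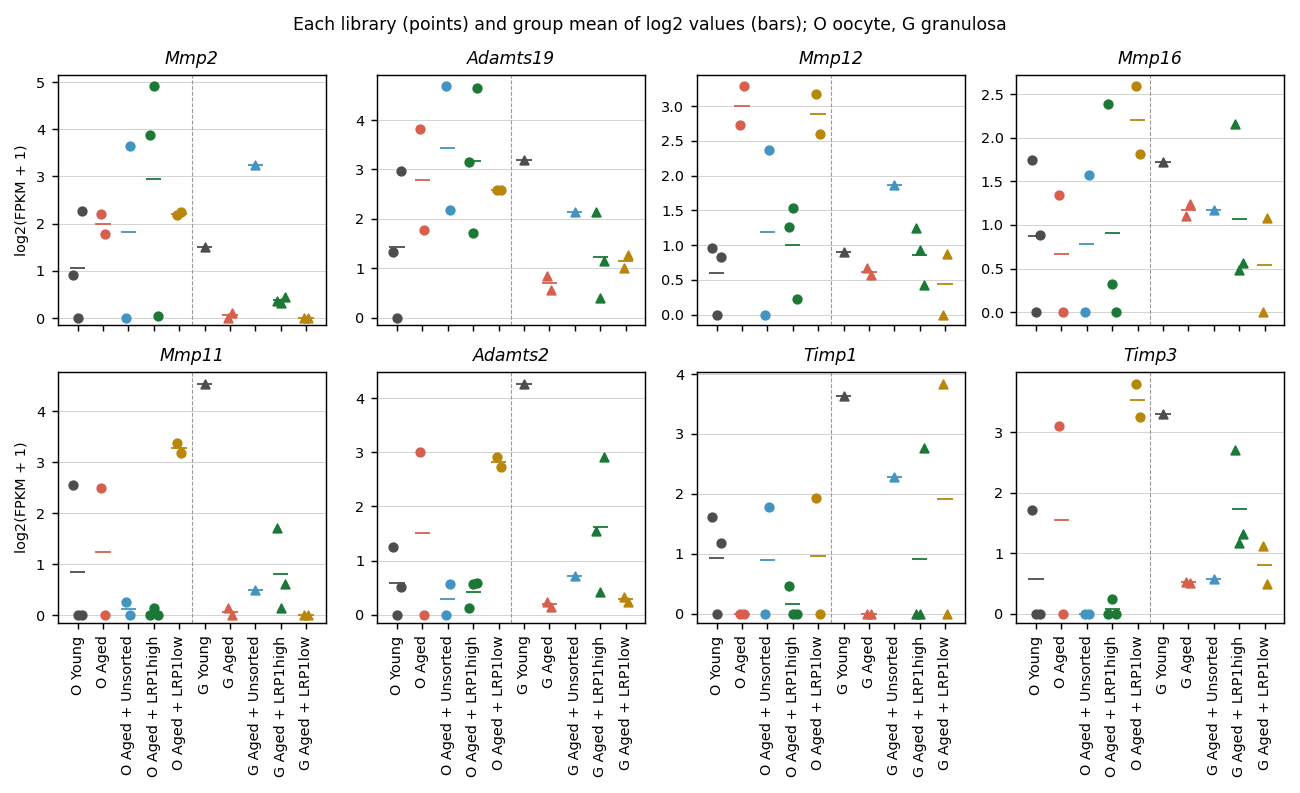
Level of 8 members by group as log2(FPKM + 1), with each library as a point (circles oocyte, triangles granulosa) and the group mean of log2 values as a bar. Mmp12 is high in oocyte Aged and Aged + LRP1low, whereas Mmp11, Adamts2 and Timp3 are high in the single granulosa Young library and low in the oocyte libraries rich in oocyte markers.

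Mmp12 lies in a cluster of 10 Mmp genes on chromosome 9 that runs from Mmp13, which starts at 7272514, to Mmp7, which ends at 7699585 (GRCm38). The cluster holds the collagenases Mmp1a, Mmp1b, Mmp8 and Mmp13, the stromelysins Mmp3 and Mmp10, matrilysin (Mmp7), metalloelastase and Mmp20 and Mmp27. Mmp12 and Mmp1b overlap at their ends on opposite strands, so reads there cannot be told apart unless strand was used in counting. In the 8 libraries rich in oocyte markers, Mmp12 was the only gene of the cluster to reach 1 FPKM in any library. Mmp1a, Mmp1b, Mmp3, Mmp7, Mmp10 and Mmp13 were listed at 0 in all 8, and Mmp8, Mmp20 and Mmp27 reached at most 0.142, 0.0737 and 0.116 FPKM.

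The windows around the starts of the members (250 bases before to 50 after, RefSeq, GRCm38.p6) were searched on both strands for 3 motifs. A window was given for 32 of the 46 members, in 35 windows. The AP-1 motif TGANTCA was held by 8 of the 35 windows (22.9%) and by 7.81% of 32817 windows of all genes. All 8 were genes of the cluster, namely Mmp1a, Mmp1b, Mmp3, Mmp7, Mmp10, Mmp12, Mmp13 and Mmp20. TATAAA was in windows of 11 members (31.4% of windows, against 13.6% of all) and the GC box GGGCGG in windows of 18 (51.4% against 35.6%). Windows of the cluster thus held the AP-1 motif also where the gene was listed at 0 in the 8 libraries rich in oocyte markers. Those of Mmp8 and Mmp27 held no AP-1 motif, nor did the first of the 2 windows of Mmp12. The sequences of 3 windows are given: Mmp12, because it stands apart from its neighbours, and Mmp11 and Timp1, because they were the highest members of granulosa Young 1 and of granulosa Aged + LRP1low 1. Capitals mark the AP-1 motif and TATAAA in Mmp12 (the second of 2 windows of the gene, chr9:7347124-7347423, plus strand), and the GC box, also as its reverse complement, in Mmp11 (chr10:75932453-75932752, minus strand) and Timp1 (chrX:20869916-20870215, plus strand).
Mmp12: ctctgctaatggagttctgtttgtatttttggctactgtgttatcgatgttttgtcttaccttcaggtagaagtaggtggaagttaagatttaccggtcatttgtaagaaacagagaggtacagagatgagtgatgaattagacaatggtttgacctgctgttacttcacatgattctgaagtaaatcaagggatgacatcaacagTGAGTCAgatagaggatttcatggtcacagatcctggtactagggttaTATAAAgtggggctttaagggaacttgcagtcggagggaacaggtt
Mmp11: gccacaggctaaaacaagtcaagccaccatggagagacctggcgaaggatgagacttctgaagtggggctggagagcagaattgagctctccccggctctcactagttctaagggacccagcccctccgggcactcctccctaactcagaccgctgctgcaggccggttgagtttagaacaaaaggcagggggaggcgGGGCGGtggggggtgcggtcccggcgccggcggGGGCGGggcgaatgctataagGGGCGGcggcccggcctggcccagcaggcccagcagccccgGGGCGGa
Timp1: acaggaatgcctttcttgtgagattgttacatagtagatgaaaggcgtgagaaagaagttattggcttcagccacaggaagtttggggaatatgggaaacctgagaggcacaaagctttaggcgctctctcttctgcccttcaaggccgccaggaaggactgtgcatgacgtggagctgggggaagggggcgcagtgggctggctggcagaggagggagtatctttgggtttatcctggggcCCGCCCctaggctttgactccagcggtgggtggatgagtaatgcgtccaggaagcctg

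Transcripts that stood out less fell into their classes as follows. Among the gelatinases, Mmp9, which shares its substrates with Mmp2, was listed at 0 in 6 of the 8 libraries rich in oocyte markers and reached at most 0.261 FPKM there. It was 4.80 in Young 1, 1.01 in Aged 1, and 13.2 and 4.85 in Aged + LRP1low. Among the membrane-type enzymes, Mmp14, the main cell-surface activator of Mmp2, was 9.23, 0 and 0 FPKM in Young oocytes, 11.5 and 2.59 with age, 0.228 and 0 in Aged + Unsorted, 0.108, 0.233 and 0.0630 in Aged + LRP1high, and 10.7 and 5.36 in Aged + LRP1low. Apart from 2.59 in Aged 2, Mmp14 was thus below 1 FPKM in every library rich in oocyte markers. Mmp16, another membrane-type enzyme, reached 4.24 FPKM in Aged + LRP1high 1. The proteoglycanase Adamts1 was 1.18, 0 and 0.11 FPKM in Young oocytes, 1.53 and 0 with age, 0 in both Aged + Unsorted libraries, 0, 0.15 and 0 in Aged + LRP1high, and 5.0 and 3.27 in Aged + LRP1low. Of the inhibitors, Timp1 reached 2.45 FPKM in Aged + Unsorted 2, 1.27 in Young 3 and 0.383 in Aged + LRP1high 1, and was listed at 0 in the other 5. Young 1 had 2.08 and Aged + LRP1low 1 had 2.80 FPKM of Timp1, and Aged 1 and Aged + LRP1low 2 listed it at 0. Timp2 and Timp3 reached at most 0.305 and 0.178 FPKM in the 8 libraries, beside 1.67 and 2.30 in Young 1 and 10.4 and 7.66 in Aged 1. Apart from Young 3, Timp2 was above 0 among the 8 in Aged + Unsorted 2 (0.242) and Aged + LRP1high 2 (0.134). Timp4 was at most 0.646 there and 24.9 in Aged 1.

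The comparison of Aged with Young oocytes asks what age changes. Calls needed an adjusted p under 0.05 together with a difference of more than 1.5-fold. Of the 46 members, 34 had a mean of at least 1 FPKM over the 12 oocyte libraries and were tested. Only 4 of them (Adamts18, Adamts19, Mmp2 and Mmp12) reached that mean when the 4 libraries low in oocyte markers were left out, so most were tested because of those libraries. None of the 34 was called by limma, where 0.0964% of the 28004 genes tested were called. Counts at an unadjusted p also needed the 1.5-fold difference, here and below, except in the test of the interaction term. At an unadjusted p under 0.05, 1 member (Mmp12) passed, and 8.65% of all genes did. This depended on 1 library: without Aged 2, members were called, but Aged then held only Aged 1, which was low in oocyte markers. The median difference of the members was 0.98 on the log2 scale, beside 0.94 for all genes tested. Mmp12 was thus the member with the largest difference, and the medians of members and of all genes were close. In such pooled RNA, fewer cells of a type and less RNA per cell cannot be told apart.

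Transplantation was compared with Aged oocytes next. In Aged + Unsorted no member was called, as was the case for all genes (0% called), and the smallest adjusted p of a member was 0.399 (limma). At an unadjusted p under 0.05, 5 members were lower (Adamts9, Adamts17, Mmp14, Mmp15 and Mmp17), or 14.7% of those tested beside 8.74% of all genes. The median difference was -1.29 for members and -0.86 for all genes. In Aged + LRP1high no member was called either, beside 0.771% of all genes, and the smallest adjusted p was 0.302 (limma). These counts depended on 1 library: without Aged 2, which was rich in oocyte markers, members were called in Aged + Unsorted and in Aged + LRP1high. Aged then held only Aged 1, which was low in oocyte markers, so these calls are not a result about the members. With all libraries, 5 members passed in Aged + LRP1high at an unadjusted p under 0.05, all lower (Adamts9, Mmp12, Mmp14, Mmp15 and Mmp17), against 10.9% of all genes. The median difference was -1.28 for members and -1.05 for all genes. Of these genes, Mmp15 and Mmp17 are membrane-type enzymes like Mmp14, and Adamts9 is a proteoglycanase. Adamts9, for example, was 10.1 and 0.926 FPKM in Aged and 0, 0.290 and 0.165 in Aged + LRP1high, with the higher Aged value in the library low in oocyte markers. Without the 4 libraries low in oocyte markers, 4 members could be tested in either comparison and none was called, with Aged then a single library whose spread was taken from the other groups.

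In Aged + LRP1low against Aged, no member was called by limma, whereas 3.17% of all genes were. At an unadjusted p under 0.05, 2 members were higher, beside 14.1% of all genes. They were the procollagen N-proteinase Adamts3, which both Aged libraries listed at 0 and which stood at 6.35 and 7.10 FPKM in Aged + LRP1low (difference 2.95, SE 0.71, adjusted p = 0.0501, limma), and Mmp9 (2.68, SE 0.93, adjusted p = 0.173). Adamts3 and Mmp9 reached the mean of 1 FPKM only through the Aged + LRP1low libraries, in which they were high, so their direction was largely set by the filter. The median difference was 1.04 for members and 0.68 for all genes. Both Aged + LRP1low libraries were low in oocyte markers, so a change with the transplant cannot be told apart from this property of the libraries.

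Aged + LRP1high against Aged + LRP1low was the comparison in which members were called. In it, 12 of 34 members (35.3%) were lower in Aged + LRP1high and none was higher, with 24.8% of all genes called lower. None of the 12 reached a mean of 1 FPKM without the 4 libraries low in oocyte markers, 2 of which are the Aged + LRP1low libraries, so they were tested because of libraries in which they were high and their direction was largely set by the filter. The count is a description of these libraries. The median difference was -2.37 for members and -1.89 for all genes, and 7 of the 34 members lay above the median of all genes. The 12 were at 2.17 to 24.2 FPKM in the Aged + LRP1low libraries and at most 1.12 in the Aged + LRP1high libraries, without overlap. Of the 12, 5 exceeded the 95th percentile of the vomeronasal receptors in both Aged + LRP1low libraries and 7 in 1 of the 2. Their coverage there was 0.168 to 3.39 reads per base. In these 2 libraries the oocyte marker sum was 53.0 and 166 FPKM, against 3507 to 9246 in Aged + LRP1high, so the kind of transplanted cell and the content of the libraries cannot be told apart.

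**Figure D4:**
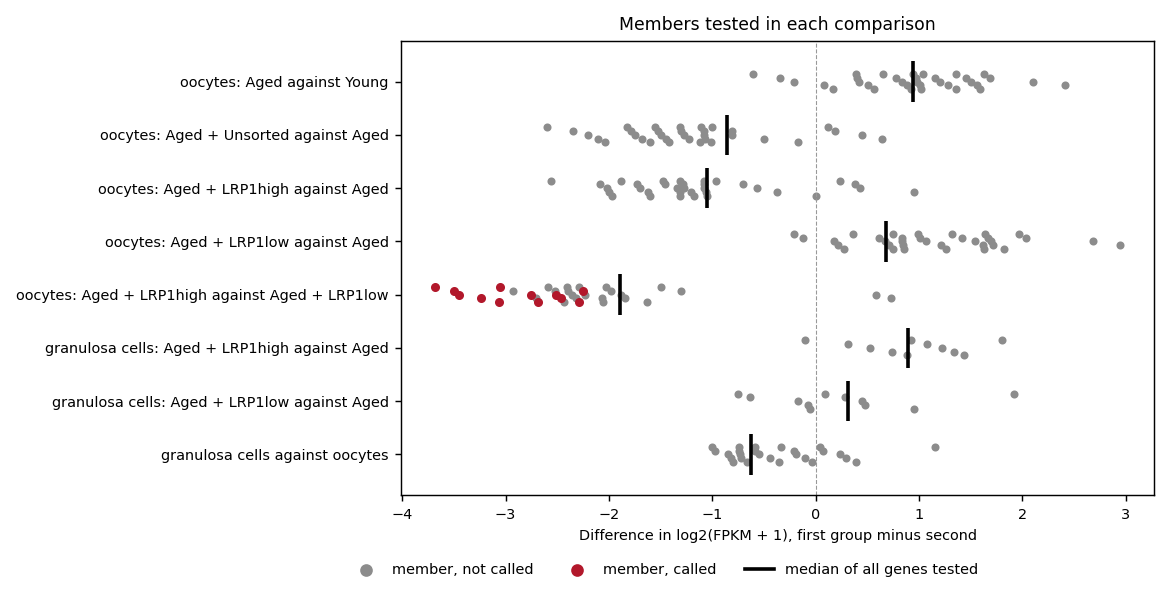
Difference in log2(FPKM + 1) of each member tested (points, red where called) in the 8 comparisons (rows), first group minus second, with the median of all genes tested as a black line. The 12 called members all lie in Aged + LRP1high against Aged + LRP1low, left of 0, and 18 of 34 members lie right of the black line in Aged against Young, 8 in Aged + Unsorted and 9 in Aged + LRP1high against Aged, 26 in Aged + LRP1low against Aged, and 7 in Aged + LRP1high against Aged + LRP1low.

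Among the proteoglycanases, which cut versican and aggrecan, 3 of 5 tested were called in this comparison, where 24.8% of all genes were called lower. Adamts9 was 16.7 and 11.2 FPKM in Aged + LRP1low and 0, 0.290 and 0.165 in Aged + LRP1high, the largest difference of any member (-3.68, SE 0.80, adjusted p = 0.0205, limma). Elsewhere Young oocytes had 1.70, 0 and 0.102 FPKM, Aged oocytes 10.1 and 0.926, and Aged + Unsorted oocytes 0 and 0.0123. Adamts15 was 9.84 and 6.81 in Aged + LRP1low against 0, 0.332 and 0 (-3.06, SE 0.86, adjusted p = 0.0340). Adamts20 was 7.38 and 4.36 against 0, 0.128 and 0 (-2.69, SE 0.73, adjusted p = 0.0319). In Young 1, Adamts15 was at 1.61 and Adamts20 at 2.53 FPKM, and in Aged 1 at 6.78 and 2.30. In the remaining oocyte libraries none of the 3 exceeded 0.926.

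Of the other ADAMTS classes, the procollagen N-proteinase Adamts3 was 6.35 and 7.10 FPKM in Aged + LRP1low and 1.12, 0.159 and 0 in Aged + LRP1high (-2.51, SE 0.65, adjusted p = 0.0288, limma). Adamts7, which cuts cartilage oligomeric matrix protein, was 6.42 and 4.08 against 0, 0.253 and 0.107 (-2.46, SE 0.76, adjusted p = 0.0415). Adamts10, a protease linked to fibrillin microfibrils, was 8.21 and 4.87 against 0, 0.296 and 0 (-2.75, SE 0.81, adjusted p = 0.0375). Only Adamts3 was listed at 0 in Aged 1, where Adamts7 and Adamts10 were at 6.02 and 4.16 FPKM. All 3 were also found in Young 1, at 1.60, 1.81 and 2.65 FPKM, and in the other Young, Aged and Aged + Unsorted libraries the highest value was 1.24 FPKM, of Adamts10 in Young 3.

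Among metalloproteinases, the stromelysin Mmp11 was 9.37 and 8.13 FPKM in Aged + LRP1low and 0, 0.0940 and 0 in Aged + LRP1high (-3.24, SE 0.92, adjusted p = 0.0352, limma). The membrane-type enzyme Mmp15 was 5.31 and 24.2 against 0, 0.152 and 0.209 (-3.50, SE 0.82, adjusted p = 0.0232), and Mmp17, which is anchored to the membrane by a lipid, was 6.79 and 2.47 against 0, 0.175 and 0.116 (-2.25, SE 0.75, adjusted p = 0.0483). For these 3 genes Aged 1 stood at 4.64, 6.15 and 4.83 FPKM, and Young 1 at 4.85, 2.07 and 2.83. Gelatinase B (Mmp9) was 13.2 and 4.85 in Aged + LRP1low against 0, 0.261 and 0.0461 (-3.05, SE 0.85, adjusted p = 0.0335). Matrilysin (Mmp7) was 2.17 and 6.57 in Aged + LRP1low and listed at 0 in all 3 Aged + LRP1high libraries (fitted difference -2.29, SE 0.73, adjusted p = 0.0436). It was also at 3.47 FPKM in Aged 1 and 0.159 in Young 1. Outside Young 1 and Aged 1, the Young, Aged and Aged + Unsorted libraries held at most 2.18 FPKM of these 5 genes, which was Mmp17 in Aged 2.

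Of the inhibitors, Timp3, which binds to the matrix and also inhibits ADAMTS proteases, was 13 and 8.54 FPKM in Aged + LRP1low and 0, 0.178 and 0 in Aged + LRP1high (-3.45, SE 0.90, adjusted p = 0.0300, limma). It was called beside 2 other Timp genes that were not. Timp2 was 3.64 and 5.54 against 0, 0.134 and 0 (-2.40, adjusted p = 0.0668). The members that went the other way were Mmp2 (0.73, SE 1.41, adjusted p = 0.687) and Adamts19 (0.59, SE 1.16, adjusted p = 0.696), both within the spread between libraries. In the libraries not yet given for the 12 called members, values were low. Young 2 listed all 12 at 0. Young 3 held Adamts3 at 0.344 FPKM, Adamts9 at 0.102 and Adamts10 at 1.24, and Aged 2 held Adamts7 at 0.671, Adamts9 at 0.926, Adamts20 at 0.412, Mmp15 at 1.37 and Mmp17 at 2.18. Aged + Unsorted 1 held Adamts7 at 0.137, Adamts15 at 0.327, Adamts20 at 0.0391 and Mmp11 at 0.189, and Aged + Unsorted 2 held Adamts3 at 0.304, Adamts9 at 0.0123 and Adamts10 at 0.173. All others of the 12 were listed at 0 there. The count of 12 rested on single choices. With the replicate number as a block it was 0, with a pseudocount of 0.1 it was 0, with quantile normalization it was 2 (Adamts9 and Timp3), and after subtracting the vomeronasal median of each library it was 1 (Adamts9). The calls were also lost when any single Aged + LRP1high or Aged + LRP1low library was left out, and more members were called without Aged 2. The share of all genes called without a library is not given here, so these changes do not describe the members in particular.

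In granulosa cells, 10 members had their highest value in the single Young library and 21 in Aged + LRP1high 1. In Young, Mmp11 was at 22.3 FPKM, Adamts2 at 18.3, Mmp23 at 13.7, Timp1 at 11.4, Mmp14 at 10.8, Timp3 at 8.84, Adamts19 at 8.10, Adamts1 at 6.48, Adamts5 at 6.36, Timp2 at 4.68 and Adamts6 at 4.35. Adamts2 is a procollagen N-proteinase, Adamts5 a proteoglycanase and Mmp23 a membrane-bound metalloproteinase. In this library 19 members exceeded the 95th percentile of the vomeronasal receptors and 23 were listed at 0. The same library had the highest granulosa marker sum. With 1 library in the group there is no replicate and no test.

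The other granulosa libraries varied among replicates of a group. Timp1 was 13.3 FPKM in Aged + LRP1low 1, 5.78 in Aged + LRP1high 3 and 3.86 in Aged + Unsorted 1, and was listed at 0 in both Aged libraries, the other 2 Aged + LRP1high libraries and Aged + LRP1low 2. Mmp23 was 7.87 and Adamts2 6.51 in Aged + LRP1high 3, beside 0.415 and 0.334 in Aged + LRP1high 2. The higher of these Timp1, Mmp23 and Adamts2 values came from libraries with larger granulosa or luteal marker sums, apart from Aged + Unsorted 1. Timp1 was nevertheless listed at 0 in Aged + LRP1high 1, which also had a large luteal marker sum. Adamts9 reached 9.43, Timp3 5.57 and Mmp14 4.69 in Aged + LRP1high 1, whose luteal marker sum was 1772 FPKM and whose vomeronasal median was 0.743, the highest of the granulosa libraries. Timp3 was 0.443 and 0.426 in Aged, 0.484 in Aged + Unsorted, 5.57, 1.26 and 1.51 in Aged + LRP1high, and 1.16 and 0.409 in Aged + LRP1low. Timp2 was 0 and 0.0727 in Aged, 0.293 in Aged + Unsorted, 2.92, 0.390 and 2.31 in Aged + LRP1high, and 0.345 and 0.543 in Aged + LRP1low. In both genes all Aged + LRP1high libraries lay above both Aged libraries, but the share of all genes that do so was not counted. The median difference of all genes between these groups was 0.89 on the log2 scale. Aged + Unsorted 1, with its oocyte markers, held Mmp2 at 8.48, Adamts19 at 3.42 and Mmp12 at 2.63 FPKM, and Mmp2 there was above every other granulosa library.

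The members described above were also followed through all granulosa libraries, in the order Young, Aged, Aged + Unsorted, Aged + LRP1high and Aged + LRP1low. Mmp11 was 22.3 FPKM in Young, 0.102 and 0 with age, 0.404 after unsorted cells, 2.26, 0.0995 and 0.519 after LRP1high cells, and 0 and 0 after LRP1low cells. For Mmp14 these values were 10.8, then 0.199 and 0, then 0.746, then 4.69, 0.498 and 0.460, and last 3.13 and 0.0821. For Adamts1 these values were 6.48, then 0.172 and 0.210, then 0, then 1.35, 0 and 0.110, and last 0 and 0.169. All 3 were highest in Young, and the next highest value of each came from Aged + LRP1high 1. For Adamts9 these values were 2.72, then 1.17 and 0.685, then 0.919, then 9.43, 1.1 and 1.02, and last 0.0309 and 0.261. For Mmp15 these values were 0.899, then 0 and 0, then 0.159, then 2.31, 0.119 and 0.395, and last 2.00 and 0.109. For Adamts3 these values were 0, then 0.425 and 0, then 0.597, then 3.35, 0.179 and 0.698, and last 0 and 0.789. These 3 were highest in Aged + LRP1high 1, the granulosa library with the highest vomeronasal median. For Adamts10 these values were 1.60, then 0.0414 and 0.208, then 0.768, then 2.59, 0.601 and 0.919, and last 1.35 and 0.402. For Adamts7 these values were 0, then 0 and 0.104, then 0.338, then 1.39, 0.116 and 0.389, and last 1.25 and 0.194. For Mmp9 these values were 0, then 0 and 0, then 0.232, then 1.32, 0.398 and 0.253, and last 0 and 0. They too were highest in Aged + LRP1high 1, and Mmp9 was listed at 0 in Young. For Adamts15 these values were 0.143, then 0.0729 and 0.946, then 0.545, then 0.746, 0.792 and 0.793, and last 0.778 and 0.229. For Adamts20 these values were 0, then 0.108 and 0.204, then 0.970, then 0.719, 0.473 and 0.670, and last 0.500 and 0.306. For Mmp17 these values were 0, then 0.155 and 0, then 0.273, then 0.374, 0.322 and 0.380, and last 0.341 and 0.0990. None of these 3 reached 1 FPKM in any granulosa library. For Adamts19 these values were 8.10, then 0.795 and 0.469, then 3.42, then 3.42, 0.319 and 1.21, and last 1.02 and 1.43. For Mmp2 these values were 1.84, then 0 and 0.0806, then 8.48, then 0.286, 0.245 and 0.353, and last 0 and 0. For Mmp12 these values were 0.873, then 0.596 and 0.479, then 2.63, then 1.36, 0.901 and 0.341, and last 0 and 0.829. Mmp2 and Mmp12 were highest in Aged + Unsorted 1 and Adamts19 in Young. Mmp7 was 0.334 FPKM in Aged + Unsorted 1 and 0.571 in Aged + LRP1high 3 and was listed at 0 in the other 7 granulosa libraries.

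In granulosa cells, 11 members passed the filter of 1 FPKM. For Aged + LRP1high against Aged, none was called by limma, and 0% of 13002 genes were called. At an unadjusted p under 0.05, 1 member passed, Timp2 (1.34, SE 0.53, adjusted p = 0.458), or 9.09% of members beside 8.51% of all genes. The median difference was 0.92 for members and 0.89 for all genes. Mmp23 (1.80, SE 0.79), Adamts2 (1.44, SE 0.74) and Timp3 (1.22, SE 0.57) had the same adjusted p of 0.458. For Aged + LRP1low against Aged, none was called by limma and 0% of all genes were, with a smallest adjusted p of 0.912 for members. No member passed at an unadjusted p under 0.05, beside 3.79% of all genes. The median difference was 0.09 for members and 0.31 for all genes. Timp1 differed most (1.92, SE 1.5, adjusted p = 0.912), through a single library. The granulosa marker sum was 1.14 and 1.32 FPKM in the Aged libraries, so the side that both comparisons share had almost no granulosa markers. Gm10800 stood at 925270 and 937196 FPKM in the same libraries, and its part in their low values was not tested. Whether the effect of either transplant differed between the cell types was tested with an interaction term, and no member was called (smallest adjusted p 0.238 for Aged + LRP1high and 0.663 for Aged + LRP1low, limma). Over all 21767 genes 0% were called in either case. At an unadjusted p under 0.05, 9 of 26 members (34.6%) passed for Aged + LRP1high, beside 16% of all genes. For Aged + LRP1low, 2 of 26 (7.69%) passed, beside 6.41%. The oocyte Aged group in both tests included Aged 1, which was low in oocyte markers. Its member median was 4.55 FPKM, against 0 in oocyte Aged 2. Without the 4 oocyte libraries low in oocyte markers, only 4 members reached a mean of 1 FPKM in oocytes. A difference between cell types thus cannot be told apart from this property of the libraries, and these shares are not a result about the members.

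Granulosa cells were compared with oocytes over the 5 kinds of mice. Of 26 members tested none was called, where 3% of 21767 genes were (limma). At an unadjusted p under 0.05, 1 member was lower in granulosa cells (Mmp17, -0.82, SE 0.36, adjusted p = 0.203), beside 21.4% of all genes. The largest difference toward granulosa cells was that of Timp1 (1.16, SE 0.55, adjusted p = 0.235), and the largest toward oocytes were those of Adamts19 (-1.0, SE 0.53, adjusted p = 0.271) and Mmp2 (-0.97, SE 0.61, adjusted p = 0.326). The median was -0.49 for members and -0.62 for all genes. Leaving out the 4 oocyte libraries low in oocyte markers and granulosa Aged + Unsorted 1, a choice made after the data were seen, changed this. Granulosa libraries low in granulosa markers were kept. They included Aged 1, Aged 2 and Aged + LRP1high 2, with granulosa marker sums of 1.14, 1.32 and 5.25 FPKM. Young, Aged and Aged + LRP1high could then be compared, and 3 of 12 members tested were called, all higher in granulosa cells, where 3.64% of all genes were called higher. Granulosa Young and oocyte Aged then held 1 library each, whose spread was taken from the other groups. They were Timp3 (1.83, SE 0.42, adjusted p = 0.0143), Adamts2 (1.80, SE 0.50, adjusted p = 0.0300) and Mmp11 (1.79, SE 0.41, adjusted p = 0.0133). The 3 calls rested on granulosa Young 1. Without it, also a choice made after the data were seen, Timp3, Adamts2 and Mmp11 no longer reached the mean of 1 FPKM and could not be tested. With Young included, Mmp2 (-1.31, SE 0.97) and Mmp12 (-0.77, SE 0.54) lay on the side of oocytes without passing, with adjusted p of 0.365 and 0.335.

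Genes that activate, clear or are cut by the members were described from 4 lists. For activation and clearance, the plasminogen activator Plat was 20.5, 202, 194, 280, 376, 245, 282 and 52.3 FPKM in the 8 oocyte libraries rich in oocyte markers, in the order of the groups, and 1.03 to 11.8 in the other 4. It was 284 in granulosa Aged + Unsorted 1 and at most 9.60 in the other granulosa libraries. Plat was lower in granulosa cells over all libraries (-3.08, SE 0.74, adjusted p = 0.0366, limma), as was Furin, which processes several precursors of the members (-2.16, SE 0.53, adjusted p = 0.0389). These were the 2 of 10 genes of this list called between the cell types, where 3% of all genes were called. Plau, the other plasminogen activator, was 583 FPKM in granulosa Young, 2824 in Aged + LRP1high 3 and 278 in Aged + LRP1high 1, and at most 4.51 in the other granulosa libraries. In oocytes Plau never exceeded 5.53. The activators thus had their high values in different libraries, Plat where oocyte markers were high and Plau in Young 1 and Aged + LRP1high 1 and 3. Granulosa Aged + LRP1low 1, with the highest luteal marker sum (5509 FPKM), listed Plau at 0.

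**Figure D5:**
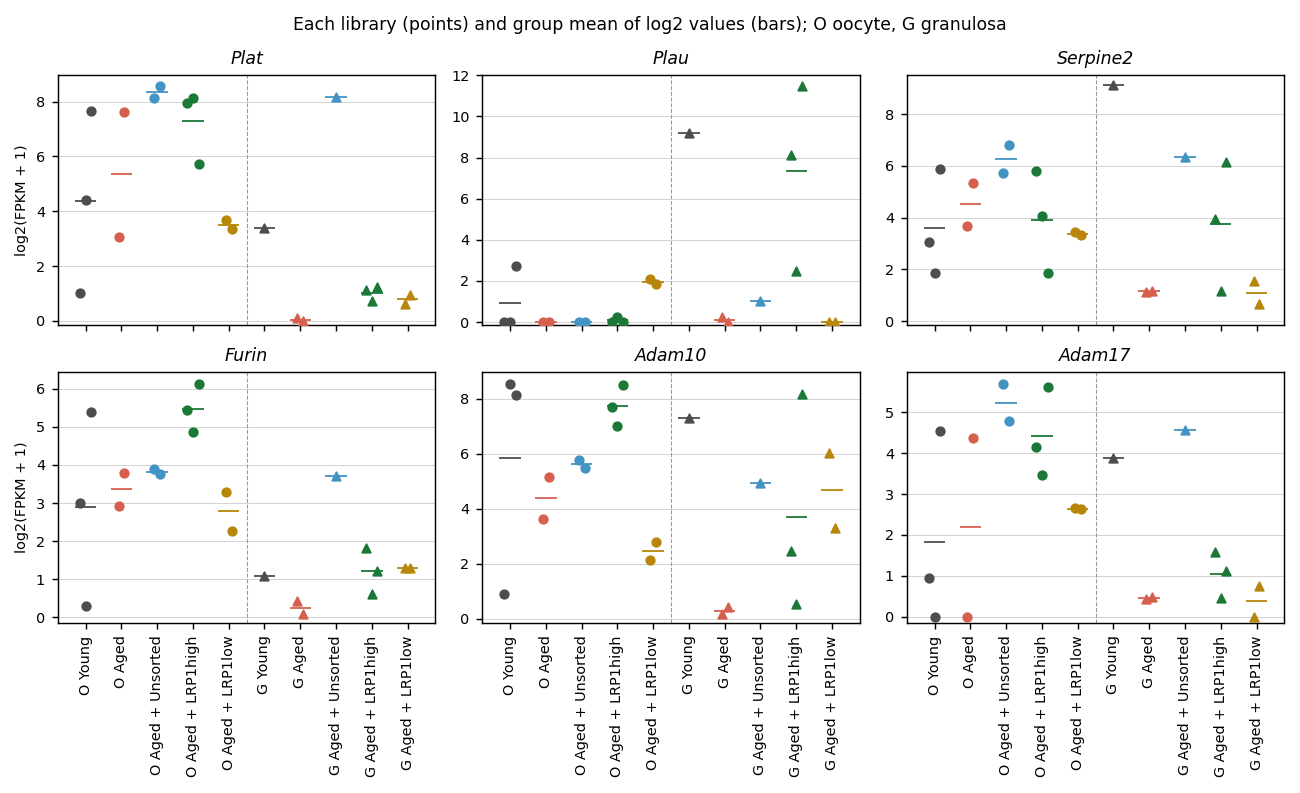
Level of 6 partner genes by group as log2(FPKM + 1), with each library as a point (circles oocyte, triangles granulosa) and the group mean of log2 values as a bar. Plat is high in the oocyte libraries rich in oocyte markers and in granulosa Aged + Unsorted, and Plau in granulosa Young and in 2 of the 3 granulosa Aged + LRP1high libraries.

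In Aged + LRP1high against Aged + LRP1low oocytes, 24.8% of all genes were called lower, and the counts of these lists stand beside that share. Of the activation and clearance genes, 1 of 9 tested was called lower, and it was A2m, a plasma protease trap (-3.59, SE 0.62, adjusted p = 0.0192, limma). Of the substrates, 3 of 5 were called lower, Acan, Ncan and Tnfaip6. A2m, Acan and Tnfaip6 were 13.4 and 11.5, 5.84 and 4.24, and 3.67 and 8.06 FPKM in Aged + LRP1low. In the other oocyte libraries they were at most 1.87, 2.47 and 0.914. They thus reached the mean of 1 FPKM through libraries in which they were high, and their direction was largely set by the filter. Of the ADAMTS-like proteins, which lack a protease domain, 4 of 7 were called lower, Adamtsl2, Adamtsl5, Papln and Thsd4. Of the related metalloproteinases, 4 of 10 were called lower, Adam12, Adam15, Bmp1 and Tll1. Ncan, Adamtsl2, Papln, Adam15, Bmp1 and Tll1 averaged below the limit of 1 FPKM over the oocyte libraries outside Aged + LRP1low. Their direction was thus largely set by the filter too, and the counts are not a result about the lists. No gene of the 4 lists was called higher here. None of the 4 lists had a called gene in the other oocyte or the granulosa comparisons. Versican (Vcan), the substrate of Adamts1, was 19 FPKM in granulosa Young and 8.02 in granulosa Aged + LRP1high 3, and at most 1.58 in the 8 oocyte libraries rich in oocyte markers. Adam10, a sheddase of cell-surface proteins, was 34.8 to 372 FPKM in those 8 libraries and thus above every member there.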

How the data were processed

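RNA of mouse oocytes and granulosa cells was sequenced on an Illumina HiSeq instrument. The study's methods describe Smart-seq2 libraries, which do not mark strand, whereas the labels name a stranded KAPA kit. The authors aligned reads with HISAT2 (2.2.1) and quantified genes with StringTie (1.3.3b). For each library the authors deposited coverage, FPKM and TPM per gene. FPKM scales fragments by gene length and library, TPM sums to the same total in every library, and coverage is the mean depth per base of a gene. The labels name another genome build, but the coordinates of 45 of the 46 members are those of GRCm38. The files hold no counts, so no counting intervals were computed, and depth was derived from the ratio of coverage to FPKM in 21693 genes with a single exon. Repeated identifiers (4 to 21 per file) were summed. Whether strand was used in counting is not given in the sources used here.

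FPKM was taken as log2 with a pseudocount of 1. Genes entered a fit if their FPKM averaged 1 or more in that cell type (in all 21 libraries for the contrast of cell types), and were fitted with limma 3.58.1 in R 4.3.3, all groups in one model, with Benjamini-Hochberg adjustment over all genes. A fold change over 1.5 with an adjusted p under 0.05 was called. The fit was tested on simulated data. The labels call libraries biological replicates but do not tie them to animals, so p-values measure the spread between libraries. Values in every library are given for members called in any comparison, those with a mean of at least 5 FPKM, Mmp12, and Mmp2, Mmp9, Mmp14, Adamts1, Timp1, Timp2 and Timp3. Members and lists were chosen with earlier results of these data known. Alternatives were another pseudocount, no filter, quantile normalization, TPM, a replicate block, leaving out each library and, chosen after seeing the data, leaving out libraries by their markers and subtracting the vomeronasal median. Granulosa Young and Aged + Unsorted hold 1 library each and entered no comparison of their own.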

Additional observations from a re-analysis of the deposited data

How the results depend on the processing

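Without the filter on low values, 2 members were called higher in Aged against Young, 2 lower in Aged + Unsorted and 2 lower in Aged + LRP1high against Aged, 6 higher in Aged + LRP1low against Aged and 30 lower in Aged + LRP1high against Aged + LRP1low. With TPM, 1 member was called higher in Aged + LRP1low against Aged. The 12 calls of Aged + LRP1high against Aged + LRP1low became 0 with a pseudocount of 0.1, 2 with quantile normalization and 1 after subtracting the vomeronasal median. Without 5 libraries set apart by their markers, 3 members were called between the cell types in place of 0, and without granulosa Young 1 as well, 0. Leaving out each library in turn gave 0 to 15 members for Aged against Young, 0 to 5 between the cell types, and 0 to 22 against Aged both in Aged + Unsorted and in Aged + LRP1high. The highest of these 4 counts were all reached without oocyte Aged 2, where Aged held only Aged 1, a library low in oocyte markers. Counts without the filter or without a library stand here without the share of all genes called, so they do not describe the members in particular. The range was 0 to 12 for Aged + LRP1low against Aged, with 12 without Aged 1, and 0 to 29 for Aged + LRP1high against Aged + LRP1low, with 29 without Aged 2. Both granulosa comparisons gave 0 throughout. Of 209 alternative values of the 12 called members, none changed direction, 99 kept their call and 110 did not. Quantile normalization moved the median of all genes from -1.89 to -0.01 on the log2 scale in Aged + LRP1high against Aged + LRP1low, and that of the members from -2.37 to -0.41. It also turned the sign of the members' median in 2 comparisons, from -0.49 to 0.19 between the cell types and from 0.09 to -0.37 in granulosa Aged + LRP1low against Aged. Over all genes, 7291 were called in Aged + LRP1high against Aged + LRP1low, beside 704 with quantile normalization, 1141 after subtracting the vomeronasal median, 22985 without the filter and 0 with a pseudocount of 0.1. The causes were not tested.

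With a replicate block, the count was 0 in Aged + LRP1high against Aged + LRP1low and in the other comparisons. Deviations of same-numbered libraries correlated from -0.436 to 0.441 over 21 pairs of oocyte groups and from -0.0761 to 0.256 over 6 pairs of granulosa groups. This cannot tell whether replicate numbers pair the samples, because deviations within a group of 2 libraries mirror each other and the pairs are not independent. The files give no counts, and a single read of 150 bases in a 1 kb gene corresponds to 0.0441 to 0.540 FPKM, so that a low FPKM rests on fewer reads in the shallow libraries than in the deep ones.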
